A study of Mus musculus with 44 samples.

Results

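Kidneys of mice without a working Bmal1 gene were compared between the night's end and the day's end. Bmal1, named Arntl in the annotation, encodes the transcription factor that drives the circadian clock together with CLOCK. The comparison used 8 of the 44 samples of the series, chosen by genotype and time labels alone: the knockout (KO) kidney RNA libraries at zeitgeber time (ZT) 20 and ZT0, called dawn here (4 libraries), and those at ZT8 and ZT12, called dusk (4 libraries). By convention ZT0 is lights on and ZT12 lights off. All mice were of the 129SV strain, 8 to 12 weeks of age, and on night-restricted feeding, and polyadenylated RNA was sequenced from whole kidney. The labels give the knockout with no word of its promoter, construct or tissue limit, and do not say whether the 2 libraries of a time point, A and B, came from separate animals. The p-values therefore measure the spread between these libraries, which may be technical. The 8 wild-type (WT) libraries at the same times, with the same strain, age and feeding, served as reference. A further 4 KO libraries, at ZT4 and ZT16, stood outside the test and are described below.

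In mammals the clock is a feedback loop: BMAL1 and CLOCK bind E-boxes and switch on Per, Cry, Rev-erb (Nr1d1, Nr1d2) and the PAR bZIP genes, whose products act back on the loop. Feeding is a second daily signal to kidney and liver. It acts through insulin, nutrients, lipid sensors and protein synthesis load, and transcripts that follow it can cycle in animals whose clock is broken. A dawn-dusk contrast in KO kidney therefore asks which transcripts still differ between these ends of the day when BMAL1 is missing.

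Values were TPM, a share of all transcripts corrected for transcript length, summed per gene. Genes were tested with limma on log2(TPM + 0.1), and a gene was called at an adjusted p under 0.05. Each log2 difference is dawn minus dusk on that scale. TPM keeps no depth, so the sequencing depth is unknown. In these libraries 12636 to 12911 genes reached 1 TPM, and the correlation between pairs of the 8 libraries across genes, which are not independent replicates, lay between 0.931 and 0.967. Mitochondrial genes took 37.7% to 40.1% of TPM at dawn and 33.0% to 39.5% at dusk. Kidney markers were high in all 8 libraries, with a summed level of 5736 to 7071 TPM for the 10 proximal tubule markers. The library labelled KO ZT12 A stood apart: its 4 Y-linked genes summed to 3.31 TPM, against 54.8 to 62.7 TPM in the other 7. Where leaving it out changed the KO call of a named gene, the value without it is given too. Other values without it are given only in part. The adjusted p of kept calls moved as well, for Txnip from 0.000275 to 0.00251 and for Pdia6 from 0.0288 to 0.018. Whole kidney is a mixture, so fewer cells of a type and less RNA per cell cannot be told apart in any value below.

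The targeted gene was examined first. Arntl (ENSMUSG00000055116, GRCm38 chromosome 7, 113207465 to 113314126, plus strand) was at 4.19 and 6.11 TPM at ZT20, 4.72 and 5.11 at ZT0, 5.66 and 5.00 at ZT8, and 5.94 and 5.70 at ZT12 in KO. Dawn and dusk overlapped, and the difference was -0.16 (SE 0.12, adjusted p = 0.728). In WT the same transcript stood at 8.24 to 12.9 TPM at dawn and 0.295 to 0.690 TPM at dusk, a difference of 4.17 (SE 0.23). Transcripts of the targeted gene were thus still counted in KO, at a level that did not separate dawn from dusk. The deleted part is not given in the labels, so this level does not check the labels, but the missing WT swing was seen in all 8 KO libraries.

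Few genes were called between dawn and dusk in KO. Of 12916 genes tested, 24 were called, or 0.186%. Of these, 14 were higher at dawn (0.108% of genes tested) and 10 higher at dusk (0.0774%). At an unadjusted p under 0.05 there were 1383 genes, 640 higher at dawn (4.96% of genes tested) and 743 higher at dusk (5.75%). In WT 2202 of 12727 genes were called, or 17.3% (1473 higher at dawn and 729 at dusk, and 912 and 1211 when TPM was rescaled without mitochondrial genes). The size of the called differences ranged from 0.48 to 4.14 log2 units, with a median of 0.75, and dawn and dusk libraries did not overlap for any of the 24. Over all genes tested, the dawn libraries lay wholly above the dusk libraries for 2.98%, and wholly below for 3.96%. The number of calls rests on single libraries: it was 40 without KO ZT20 B, 26 without KO ZT12 A, 15 without KO ZT8 A, 11 without KO ZT0 A, KO ZT0 B or KO ZT12 B, and 8 without KO ZT20 A or KO ZT8 B. Only Calr, Tuba4a, Txnip, Pdk4, Klf10 and Klf11 were called in each of these 8 fits. Fkbp4, Gsr, Rgs2, Calcoco1, Hdac5 and Pik3ip1 were called in none of them, although the sign of all 24 differences held in every fit.

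**Figure D1:**
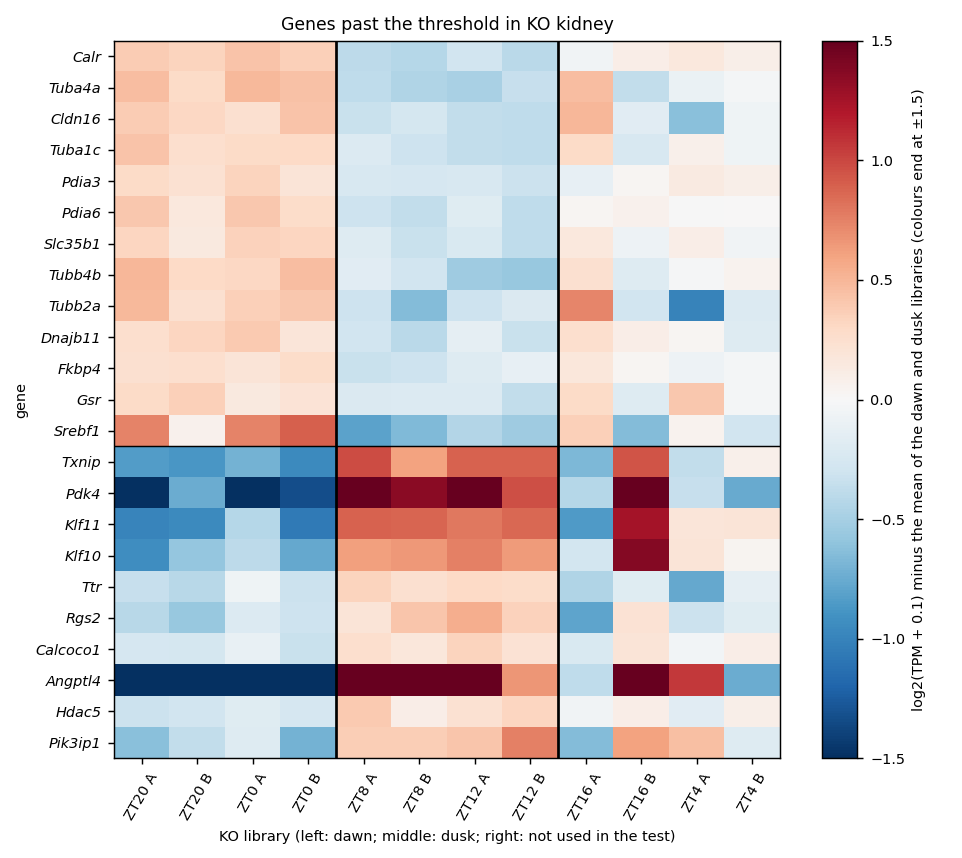
Called genes (23 rows, 13 higher at dawn above the line, 10 higher at dusk below it) in the 12 KO libraries (columns), as log2(TPM + 0.1) minus the mean of the 8 tested libraries. The dawn and dusk blocks are of opposite colour in every row by choice of the genes; in the untested block ZT16 A mostly carries the dawn colours and ZT16 B mostly the dusk colours.

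Genes called higher at dawn included 4 chaperones and folding enzymes of the endoplasmic reticulum (ER) and 4 tubulins. Calr encodes calreticulin, a calcium-binding lectin chaperone of the ER (chromosome 8, 84841850 to 84846934, minus strand). It was at 399 and 388 TPM at ZT20 and 415 and 394 at ZT0, against 235 and 229 at ZT8 and 252 and 233 at ZT12. The dawn mean of 399 TPM ± 11.4 (SD, n = 4) was 1.68 times the dusk mean of 237 ± 10.1 (SD, n = 4), with a difference of 0.75 (SE 0.06, adjusted p = 0.00245). The 8 values formed a high and a low group with a wide gap between them. WT showed nearly the same size, 0.81 (SE 0.08).

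Pdia3, the disulfide isomerase that works with calreticulin, was at 237, 228, 244 and 222 TPM at dawn and 164, 163, 164 and 156 at dusk (0.53, SE 0.06, adjusted p = 0.011). Pdia6, a further disulfide isomerase, was at 92.2, 77.7, 92.0 and 84.6 TPM at dawn and 56.1, 54.0, 61.5 and 53.6 at dusk (0.62, SE 0.08, adjusted p = 0.0288). Dnajb11, a co-chaperone of the ER HSP70 protein BiP, was at 57.6, 60.5, 63.5 and 54.6 TPM against 39.4, 36.3, 44.0 and 38.3 (0.58, SE 0.08, adjusted p = 0.0354). All 3 genes kept a narrow spread at each end of the day. Slc35b1, which exchanges ATP for ADP across the ER membrane and is on none of the lists, followed the same pattern with 35.3, 31.3, 35.8 and 35.4 TPM at dawn and 24.7, 22.4, 24.2 and 21.7 at dusk (0.57, SE 0.07, adjusted p = 0.0288).

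On the list of 22 ER chaperones and folding enzymes, all of them tested, 4 were called higher at dawn (Calr, Pdia3, Pdia6 and Dnajb11) and none higher at dusk. A further 9 were higher at dawn at an unadjusted p under 0.05, giving 13 of 22, where 4.96% of all genes tested did the same; 1 was higher at dusk, against 5.75% of all genes. The libraries did not overlap for 11 members higher at dawn, against 2.98% of all genes, and for 1 higher at dusk, against 3.96%. The difference was positive for 19 of the 22 and negative for 3. The median difference of the list was 0.39, beside -0.01 over all genes. Sdf2l1, an ER protein that assists folding, had a larger fold but a wider spread, at 23.0, 18.3, 18.7 and 14.5 TPM at dawn and 5.66, 4.83, 9.99 and 6.59 at dusk (1.48, SE 0.22, adjusted p = 0.0552). Hspa5, which encodes BiP itself, was at 188, 318, 254 and 202 TPM against 116, 114, 187 and 149 (0.76, SE 0.21, adjusted p = 0.251). Its highest dusk value lay just under its lowest dawn value. With dusk wholly above dawn was Herpud1, an ER-associated degradation factor, at 83.0 to 96.0 TPM at dawn and 107 to 166 at dusk (adjusted p = 0.241). Hspa5 and Herpud1 lie outside the naming rule and were singled out with their values in view.

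The library KO ZT12 A held the highest dusk value of Calr, Pdia6, Dnajb11, Sdf2l1 and Hspa5. Without it 7 of the 22 were called higher at dawn: the same 4 with Sdf2l1 (1.69, adjusted p = 0.0109), Hsp90b1 (0.90, adjusted p = 0.0451) and Hyou1 (0.85, adjusted p = 0.0474), and the list's median was 0.45. Without KO ZT20 B 3 of the 4 were called, Dnajb11 being lost. Over the 8 fits that each left out 1 library, Calr was called in 8, Pdia3 in 4, Pdia6 in 2 and Dnajb11 in 1. Slc35b1 was called in 3 of these fits. The 8 regulators of the unfolded protein response, among them Xbp1, Atf6 and Ddit3, held no called gene and had a median of 0.02. Without KO ZT12 A they again held no called gene, and their median was 0.12. Xbp1 was at 50.4 to 73.7 TPM at dawn and 46.9 to 65.5 at dusk (0.23, SE 0.14, adjusted p = 0.639; 0.34 without KO ZT12 A). In WT 20 of the 22 chaperones were called, each higher at dawn, against 17.3% of all genes tested in WT. For none of the 22 did the KO difference depart from the WT difference at an adjusted p under 0.05, where 0.318% of all genes did.

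Promoters of the ER list were read for the ER stress element, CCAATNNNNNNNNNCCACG, to which the unfolded protein response factor ATF6 binds with NF-Y. Promoters were RefSeq windows on GRCm38 from 250 bases before to 50 bases after a transcript start. Either strand was searched. Of the 22 listed genes 18 had a promoter in the table, and 7 of the 18 (38.9%) held a match, where 0.137% of all 27025 genes with a promoter did. The matches are shown with the CCAAT and CCACG ends in capitals and the 9-base spacer in lower case, each read with CCAAT first:
Hspa5: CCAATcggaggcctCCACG
Hsp90b1, farther site: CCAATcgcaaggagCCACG
Hsp90b1, nearer site: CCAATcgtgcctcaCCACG
Calr: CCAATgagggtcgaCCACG
Canx: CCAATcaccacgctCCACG
Pdia6: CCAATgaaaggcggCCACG
Dnajc3: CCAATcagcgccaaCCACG
Creld2: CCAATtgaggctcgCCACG
The sites of Calr, Creld2 and the nearer one of Hsp90b1 lay on the strand opposite to the gene. The 7 genes with a match had KO differences from 0.31 to 0.77 with a median of 0.62, and 2 of them, Calr and Pdia6, were called. The 11 listed genes with a promoter and no match ranged from -0.51 to 1.48 with a median of 0.13, and 2 of them, Pdia3 and Dnajb11, were called. This split was made after the values were seen and was not tested. It describes letters in a window, not binding.

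The whole windows of the 2 called genes with a match follow, with the element in capitals. For Calr the window was chr8:84846882-84847181 on the minus strand, and the element, here in reverse complement, ran from 162 to 144 bases upstream of the start.
Calr: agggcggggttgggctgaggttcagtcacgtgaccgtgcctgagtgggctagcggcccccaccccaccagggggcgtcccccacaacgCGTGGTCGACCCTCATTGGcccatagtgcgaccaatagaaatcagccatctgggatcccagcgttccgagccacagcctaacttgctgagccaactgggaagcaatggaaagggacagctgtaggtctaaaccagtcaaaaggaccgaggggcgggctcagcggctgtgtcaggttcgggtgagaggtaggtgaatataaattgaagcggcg
For Pdia6 the window was chr12:17266339-17266638 on the plus strand, with the element 98 to 80 bases upstream.
Pdia6: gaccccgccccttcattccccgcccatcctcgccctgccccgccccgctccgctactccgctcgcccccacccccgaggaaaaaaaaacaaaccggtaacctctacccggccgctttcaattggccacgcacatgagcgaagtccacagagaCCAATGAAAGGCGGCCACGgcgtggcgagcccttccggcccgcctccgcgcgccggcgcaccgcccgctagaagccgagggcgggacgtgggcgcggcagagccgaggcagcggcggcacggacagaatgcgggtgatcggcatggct
Calr held an E-box (CACGTG) as well, as did 8.09% of all genes with a promoter.

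Tubulins, the subunits of microtubules, gave as many calls higher at dawn. Tuba4a was at 189, 167, 192 and 186 TPM at dawn and 105, 100, 98.2 and 108 at dusk (0.83, SE 0.07, adjusted p = 0.00245). Tuba1c was at 37.5, 33.3, 34.1 and 34.4 TPM against 24.2, 22.4, 21.6 and 21.5 (0.63, SE 0.07, adjusted p = 0.00865). Tubb4b was at 141, 123, 123 and 137 TPM against 88.4, 81.4, 68.6 and 66.9 (0.79, SE 0.10, adjusted p = 0.0321). Tubb2a was the fourth, with 56.3 to 66.5 TPM at dawn and 30.2 to 40.9 at dusk (adjusted p = 0.0343). A list of 16 alpha and beta tubulin genes was drawn up after these calls were seen, so its counts are a description: 9 passed the filter, all 9 had a positive difference, 7 had an unadjusted p under 0.05, and their median was 0.49. Over all genes tested, 6201 of 12916 had a positive difference and 4.96% were higher at dawn at an unadjusted p under 0.05. Without KO ZT12 A only Tuba4a and Tuba1c were called, Tubb4b and Tubb2a each reaching an adjusted p of 0.0508. Over the 8 fits that each left out 1 library, Tuba4a was called in 8, Tuba1c in 7, and Tubb4b and Tubb2a in 2 each. Tubulin coding sequences are close copies of each other, so the split of reads between them is uncertain.

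The other genes higher at dawn had separate roles. Cldn16, a tight junction protein of the thick ascending limb that serves calcium and magnesium uptake, was at 14.2, 13.5, 12.9 and 14.7 TPM at dawn and 8.61, 9.05, 8.39 and 8.34 at dusk (0.68, SE 0.07, adjusted p = 0.00865). Of the 5 thick ascending limb markers it was the only one called; the summed level of these markers was 1717 to 1987 TPM at dawn and 1737 to 2133 at dusk. Gsr, glutathione reductase, was at 79.1 to 91.5 TPM against 55.3 to 61.9 (0.50, SE 0.07, adjusted p = 0.0392; adjusted p = 0.0601 without KO ZT12 A).

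Srebf1 encodes SREBP1, which switches on fatty acid synthesis after feeding. It was at 34.0 and 21.3 TPM at ZT20 and 34.1 and 37.8 at ZT0, against 11.6 and 12.8 at ZT8 and 15.0 and 14 at ZT12. The dawn mean of 31.8 TPM ± 7.22 (SD, n = 4) was 2.38 times the dusk mean of 13.3 ± 1.47 (1.22, SE 0.17, adjusted p = 0.0392). Every dawn library was above every dusk library, with KO ZT20 B the lowest of the dawn values. The difference missed the threshold without KO ZT12 A (1.28, adjusted p = 0.0637).

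Fatty acid and sterol synthesis genes gave few calls. Of 15 fatty acid synthesis genes tested, Srebf1 was the only one called and 5 were higher at dawn at an unadjusted p under 0.05, where 4.96% of all genes were. The median was 0.22, and 0.47 without KO ZT20 B. Acly, which makes cytosolic acetyl-CoA, was at 52.4 to 58.2 TPM at dawn and 37.0 to 45.2 at dusk (0.47, adjusted p = 0.0755). Acly was the one gene called on this list without KO ZT12 A (0.53, adjusted p = 0.018). Scd2, a fatty acid desaturase, was at 33.2 to 40.1 against 14.7 to 24.8 TPM (0.90, adjusted p = 0.103). None of the 24 genes of sterol synthesis and SREBP2 targets was called, 10 were higher at dawn and 1 higher at dusk at an unadjusted p under 0.05 (4.96% and 5.75% of all genes), and the median was 0.49. At that level 6 were higher at dawn without KO ZT12 A, none was called, and the median was 0.43.

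Some lipid synthesis genes were low in KO ZT20 B among the dawn libraries, though Acly was not (55.6 TPM). Fasn, fatty acid synthase, was at 14.9 TPM in it and at 41.6 to 58.5 in the other dawn libraries. Without this library 8 of the 24 sterol genes were called higher at dawn (Fdps, Sqle, Msmo1, Dhcr7 and Insig1 among them), the list's median was 0.66, and both Srebf1 and Fasn were called. Fasn lies outside the naming rule, as do genes named only for that fit. In WT 19 of the 24 sterol genes were called, all higher at dawn, against 17.3% of all genes tested in WT, with a median of 0.52. Of the 16 sterol genes with a promoter in the table, 1 (Hmgcs1) held the sterol regulatory element TCACNCCAC, where 1.44% of all genes did.

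The list of heat shock proteins and co-chaperones gave 1 call among 19 tested. Fkbp4, a co-chaperone of HSP90, was at 132, 133, 127 and 135 TPM at dawn and 88.8, 90.1, 97.3 and 103 at dusk (0.48, SE 0.07, adjusted p = 0.0392; adjusted p = 0.054 without KO ZT12 A). Hsp90aa1 was at 236 to 325 TPM against 158 to 239 (0.61, adjusted p = 0.189). Of the 19, 5 were higher at dawn and none higher at dusk at an unadjusted p under 0.05 (4.96% and 5.75% of all genes). The median was 0.20 in KO and 0.59 in WT, where 13 were called, against 17.3% of all genes tested in WT. The inducible Hspa1a and Hspa1b had differences of -0.23 and 0.03, with adjusted p of 0.84 and 0.994. Stip1 and Hsp90ab1, further members of the HSP90 machinery, had differences of 0.37 and 0.33 (adjusted p = 0.273 and 0.281). Without KO ZT12 A no member was called and 8 had an unadjusted p under 0.05, with a median of 0.32. Cirbp and Rbm3, RNA-binding proteins that rise when body temperature falls, had KO differences of -0.46 and -0.11 (adjusted p = 0.543 and 0.824) and WT differences of -1.19 and -0.70 (adjusted p = 0.00381 and 0.00244).

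**Figure D2:**
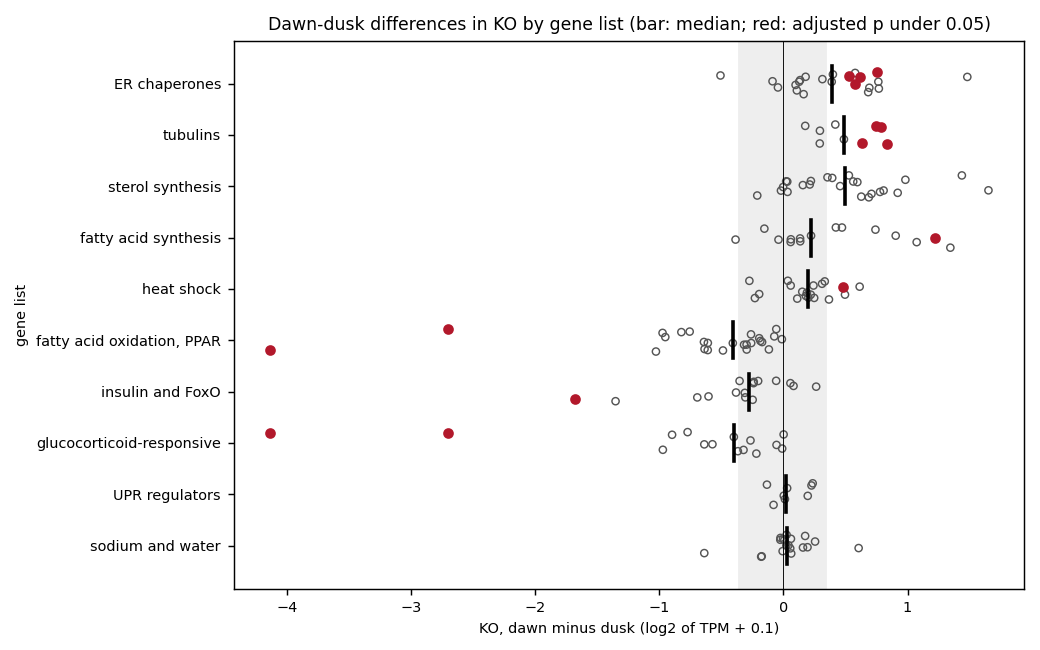
Difference between dawn and dusk in KO for each tested member of 10 gene lists (circles, log2 scale; red, called; bar, median; grey band, the 5th to 95th percentile of all genes, -0.36 to 0.34). ER chaperones (median 0.39), tubulins (0.49) and sterol genes (0.49) lie to the right, fatty acid oxidation genes (-0.41) to the left.

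Among the genes higher at dusk were Txnip, Pdk4 and Angptl4, which are known to rise in fasting. Txnip encodes the thioredoxin-interacting protein, an arrestin-like brake on glucose uptake (chromosome 3, 96557957 to 96561883, plus strand). It was at 98.0 and 95.6 TPM at ZT20 and 107 and 90.3 at ZT0, against 345 and 265 at ZT8 and 322 and 324 at ZT12. The dusk mean of 314 TPM ± 34.4 (SD, n = 4) was 3.21 times the dawn mean of 97.8 ± 7.05, the smallest p of all genes tested (-1.68, SE 0.09, adjusted p = 0.000275). In WT the difference was -0.74 (SE 0.16, adjusted p = 0.0207), and the KO difference minus the WT difference was -0.94 (SE 0.19, adjusted p = 0.0557).

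The promoter of Txnip was read after these values were seen, for GTAAACA, a form of the FoxO element. FoxO factors are active when insulin signalling is low. The window, chr3:96557707-96558006 on the plus strand, held 1 match (capitals), 121 to 115 bases upstream of the start, where 4.05% of all genes with a promoter held one.
Txnip: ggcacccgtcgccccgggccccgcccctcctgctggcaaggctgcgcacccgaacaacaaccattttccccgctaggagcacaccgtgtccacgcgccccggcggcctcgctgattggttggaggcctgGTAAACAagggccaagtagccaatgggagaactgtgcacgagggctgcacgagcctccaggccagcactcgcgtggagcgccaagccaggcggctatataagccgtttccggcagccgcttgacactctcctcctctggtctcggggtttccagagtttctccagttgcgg
Of the 10 genes called higher at dusk 7 had a promoter in the table, and Txnip was the only one with this match.

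Pdk4, the kinase that shuts off pyruvate dehydrogenase when fat is burned, was at 3.68, 6.67, 3.22 and 4.39 TPM at dawn and 33.9, 28.8, 31.9 and 22.0 at dusk. The dusk mean of 29.1 TPM ± 5.19 (SD, n = 4) was 6.49 times the dawn mean of 4.49 ± 1.53 (-2.71, SE 0.22, adjusted p = 0.003). In WT, Pdk4 did not follow this pattern: dusk libraries held 5.03 to 7.29 TPM and dawn libraries 5.44 to 17.6 (0.27, SE 0.38, adjusted p = 0.653). The KO difference minus the WT difference was -2.98 (SE 0.46, adjusted p = 0.0109), which made Pdk4 the only gene called both in KO and in the test between genotypes.

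Angptl4, a secreted inhibitor of lipoprotein lipase, had the largest fold of all called genes. It was at 1.14, 2.40, 2.04 and 1.17 TPM at dawn and 55.7, 28.3, 45.3 and 11.2 at dusk (-4.14, SE 0.52, adjusted p = 0.0392). The dusk values ranged widely but all lay above the dawn values. Without KO ZT12 A the difference was -3.94 (adjusted p = 0.0847). In WT it was -1.19 (adjusted p = 0.164), and the test between genotypes gave -2.95 (adjusted p = 0.163).

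Klf11 and Klf10 encode Krüppel-like transcription factors. Klf11 was at 1.09, 1.11, 1.66 and 1.02 TPM at dawn and 4.26, 4.23, 3.99 and 4.19 at dusk (-1.72, SE 0.15, adjusted p = 0.003). Klf10 was at 1.63, 2.11, 2.41 and 1.84 TPM against 4.96, 5.05, 5.48 and 5.01 (-1.33, SE 0.13, adjusted p = 0.00469). The 4 dusk libraries nearly coincided for both. Both were called in WT as well, Klf11 with -1.17 (adjusted p = 0.00522) and Klf10 with -0.48 (adjusted p = 0.0459).

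The remaining 5 genes higher at dusk differed by smaller folds. Pik3ip1, an inhibitor of PI3 kinase, was at 2.69, 3.23, 3.67 and 2.53 TPM at dawn and 5.48, 5.48, 5.63 and 7.18 at dusk (-0.95, SE 0.14, adjusted p = 0.0463). Rgs2, which quenches G protein signalling, was at 4.68 to 6.07 TPM against 8.02 to 10.3 (adjusted p = 0.0392). Ttr, the thyroid hormone carrier transthyretin, was at 70.7 to 90.1 TPM against 111 to 119 (-0.58, adjusted p = 0.0392), with a WT difference of 0.07 (SE 0.27). Hdac5, a histone deacetylase held out of the nucleus by phosphorylation, and Calcoco1, a receptor for ER autophagy, were lower at dawn by 0.52 and 0.48 (each with adjusted p = 0.0392). Without KO ZT12 A the adjusted p of these 5 lay between 0.0618 and 0.0637.

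**Figure D3:**
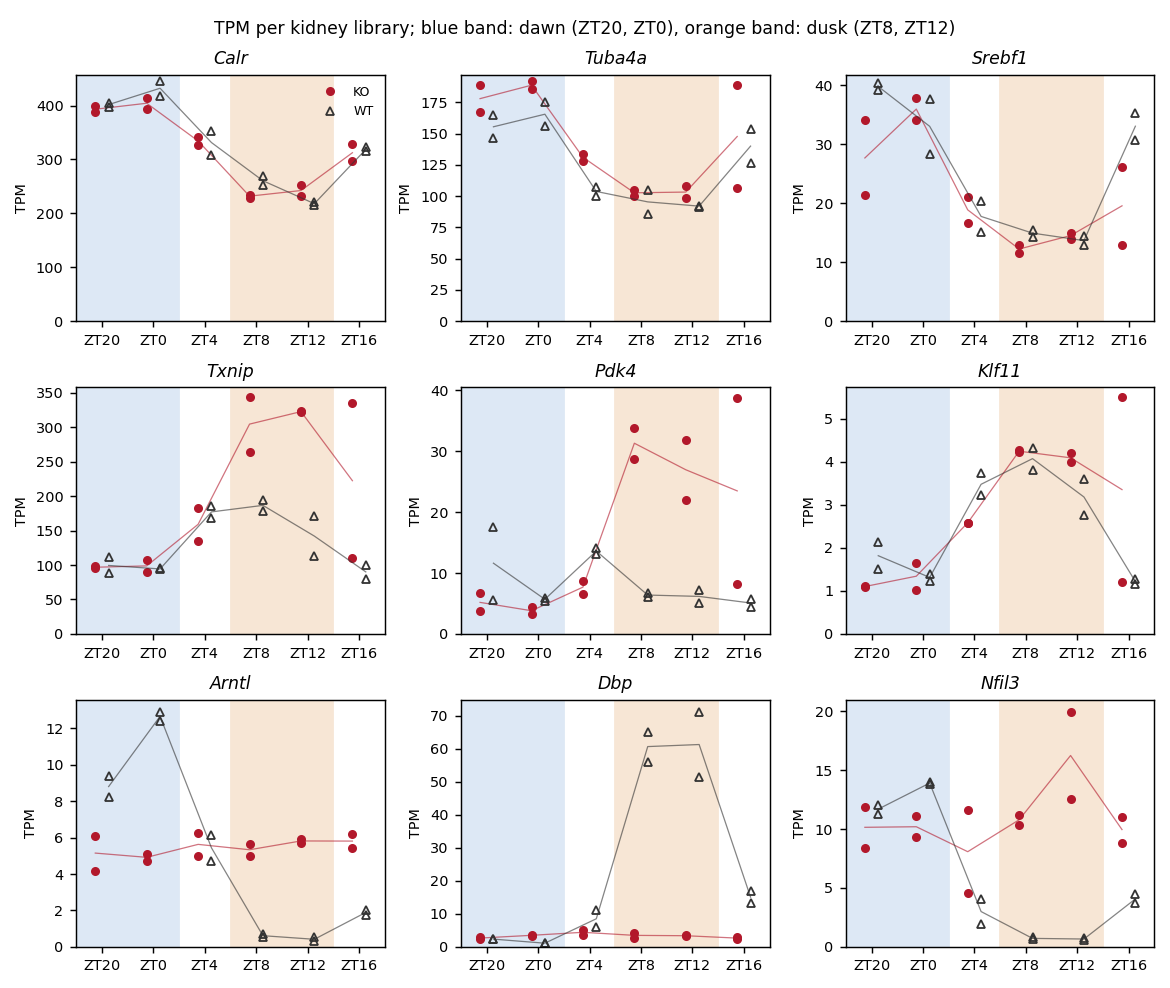
TPM of 9 genes in each KO (filled circles) and WT (open triangles) library by zeitgeber time, with lines through the means of 2 libraries. Calr, Tuba4a and Srebf1 were high at dawn in both genotypes, Txnip and Pdk4 reached higher dusk values in KO, and Arntl, Dbp and Nfil3 swung in WT only.

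Fatty acid oxidation genes and targets of the fatty acid receptor PPAR had negative differences throughout, with 2 calls. Of 25 tested, all 25 had a negative difference, 2 were called (Pdk4 and Angptl4) and 12 had an unadjusted p under 0.05, and the median was -0.41 in KO and 0.03 in WT. Over all genes tested 6715 of 12916 had a negative difference, 0.0774% were called higher at dusk and 5.75% were higher at dusk at an unadjusted p under 0.05. Cpt1a, the gate for fatty acids into mitochondria, was at 46.5, 73.6, 46.7 and 47.9 TPM at dawn and 95.7, 89.1, 83.3 and 87.9 at dusk (-0.76, SE 0.14, adjusted p = 0.105). KO ZT20 B was again the library apart, and without it Cpt1a, Ehhadh and Pdk4 were called on this list, Angptl4 was not, and the median was -0.71. Without KO ZT12 A only Pdk4 was called, 7 had an unadjusted p under 0.05, and the median was -0.36. Decr2, a peroxisomal fatty acid enzyme, was at 49.5 to 67.6 TPM against 77.0 to 98.6 (-0.64, adjusted p = 0.105). Acot2, a mitochondrial thioesterase, had a difference of -0.97 (adjusted p = 0.241). In WT 4 of the 25 were called, 3 higher at dusk and 1 higher at dawn, against 17.3% of all genes tested in WT. The WT differences of Cpt1a, Decr2 and Acot2 were -0.68, -0.44 and 0.03 (adjusted p = 0.000419, 0.0366 and 0.9). The test between genotypes called Pdk4 alone on this list, where 0.318% of all genes passed.

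Genes that respond to insulin and FoxO gave 1 call, Txnip, among 16 tested, and 8 were higher at dusk at an unadjusted p under 0.05 (4 without KO ZT12 A), against 5.75% of all genes, with a median of -0.28. Igfbp1, an insulin-repressed secreted protein, was at 2.19, 6.10, 5.21 and 2.05 TPM at dawn and 6.28, 6.19, 9.92 and 17.1 at dusk (-1.35, adjusted p = 0.362). G6pc, the last enzyme of glucose output, was at 150 to 229 TPM against 205 to 428 (-0.60, adjusted p = 0.377; -0.40 without KO ZT12 A), and in WT it had the opposite sign (0.70, adjusted p = 0.0149); the test between genotypes gave -1.30 (adjusted p = 0.0696). Of 15 glucocorticoid-responsive genes the 2 called, Pdk4 and Angptl4, were also on the PPAR list. Of the 15, 14 had a negative difference and 3 an unadjusted p under 0.05, with a median of -0.40. Over all genes tested 6715 of 12916 had a negative difference. Of all genes 5.75% were higher at dusk at that level, and 0.0774% were called higher at dusk. Pdk4 alone was called on it without KO ZT12 A, and the median was -0.20. Errfi1, a feedback inhibitor of the EGF receptor, was at 54.1 to 101 TPM against 99.4 to 155 (-0.90, adjusted p = 0.181).

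No clock gene was called in KO. Of 19 clock genes listed, 17 passed the filter, Ciart and Bhlhe41 being too low, and 3 had an unadjusted p under 0.05: Nr1d2, Hlf and Rora. Over all 12916 genes tested 1383 did. The median size of difference, without regard to sign, was 0.19 over the 17, beside 0.10 over all genes tested. Nr1d2, a REV-ERB repressor, was at 0.956, 1.48, 1.45 and 1.19 TPM at dawn and 1.94, 3.21, 2.10 and 2.57 at dusk, with no overlap (-0.90, SE 0.20, adjusted p = 0.142). Per1 and Per2, repressors that also respond to glucocorticoids and feeding, had differences of -0.77 and -0.42 (adjusted p = 0.529 and 0.675), and Cry1, Cry2 and Clock of 0.11, 0.08 and 0.19. These 5 differences without KO ZT12 A were -0.44, -0.27, 0.24, 0.13 and 0.34, and that of Nfil3 was -0.17 in place of -0.37. On simulated data of this design, 23% of the genes changed by 0.5 log2 units were recovered and 81.5% of those changed by 1, so small differences in clock genes could be missed with these libraries.

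In WT 14 of the 19 were called, against 17.3% of all genes tested in WT. The test between genotypes, in which 41 of 12873 genes passed (0.318%; 28 with the lower and 13 with the higher KO difference, and 18 and 21 when TPM was rescaled without mitochondrial genes), called 10 of the 18 clock genes it could test, among them Arntl, Ciart, Dbp, Nfil3, Npas2, Nr1d1, Nr1d2, Per3 and Tef. Nfil3, a repressor of D-box genes, had the smallest p: it was at 8.42 to 11.9 TPM at dawn and 10.4 to 20 at dusk in KO, where WT had 11.3 to 14 and 0.567 to 0.791 (KO minus WT -4.41, SE 0.25, adjusted p = 2.08e-07). Dbp, a PAR bZIP activator, was at 2.46 to 3.57 and 2.71 to 4.20 TPM in KO and at 0.989 to 2.36 and 51.4 to 71.2 in WT (5.02, SE 0.34, adjusted p = 1.17e-06). The KO differences of Nr1d1 (-0.40), Per3 (-0.35), Tef (-0.07) and Npas2 (-0.02) stood beside WT differences of -3.64, -2.32, -1.58 and 3.45. Outside the clock lists, Slc16a1, a lactate and pyruvate carrier, and Ypel2 had the smallest p (-1.93 and -2.42, adjusted p = 0.00015 and 0.000154). For both, dawn and dusk overlapped in KO and stood apart in WT.

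**Figure D4:**
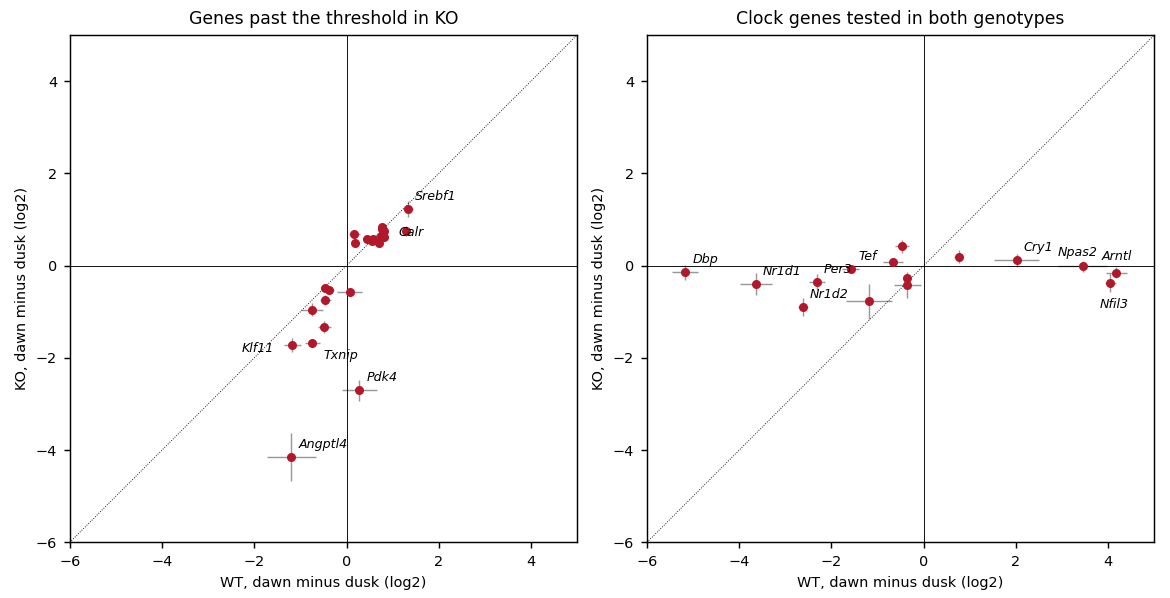
Dawn minus dusk (log2, with SE bars) in KO against WT for 23 of the called genes (left) and 15 clock genes (right); the dotted line marks equality. In the left panel, Pdk4 (-2.71 in KO, 0.27 in WT) and Angptl4 (-4.14 and -1.19) lie farthest below the line. The clock genes drawn span -5.17 to 4.17 in WT and -0.90 to 0.42 in KO.

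Of the 24 genes called in KO, 17 were also called in WT, all 17 in the same direction. They were 70.8% of the KO calls, where 17.3% of all genes tested in WT were called, and 0.772% of the WT calls. The comparisons share no library. Angptl4, Cldn16, Gsr, Pdk4, Pik3ip1 and Ttr were among those not called in WT, and of the genes called in KO only for Pdk4 did the difference between genotypes pass. At an unadjusted p under 0.05 it did so for 11 of the 24, against 11.9% of all genes, so likeness to WT is not shown for the rest. The spread at each end of the day was larger in KO, with a median residual SD over 12465 genes of 0.16 in KO, 0.14 without KO ZT12 A, and 0.13 in WT.

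The 4 KO libraries outside the test were placed between dusk and dawn by the called genes. With the dusk mean of a gene set to 0% and its dawn mean to 100% on the log2 scale, the median place of the 24 genes was 91.8% in KO ZT16 A and 16.7% in KO ZT16 B. Txnip was at 110 TPM in the first and 336 in the second, Pdk4 at 8.27 and 38.7, and Tuba4a at 189 and 106. The 2 libraries of this time point thus fell on opposite sides, 22 of the 24 genes lying nearer dawn in A and 18 nearer dusk in B. At ZT4 the median places were 54.2% (A) and 45.1% (B). KO ZT4 A goes against its label in clock genes, with Nr1d1 at 23.8 TPM against 1.23 to 3.46 in the 8 tested libraries and Cry1 at 1.03 against 11.5 to 17.8, so it is given under its label as a value only.

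Most other lists held no called gene. These were sodium and water transport (19 tested, median 0.03), renal glucose handling (11, -0.03), NRF2 targets (11, -0.03), proteasome subunits (31, 0.04), ATF4 amino acid response (13, 0.10), immediate early genes (14, -0.05), cell cycle genes (10, -0.03), tubular injury markers (7, -0.05) and the pair of cold-induced genes (-0.29). Without KO ZT12 A none of them held a called gene either. In the same order, the medians were then 0.11, -0.05, 0.01, 0.02, 0.16, 0.02, -0.02, -0.05 and -0.39.

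Among markers of other cells, all 5 blood genes were higher at dawn at an unadjusted p under 0.05, against 4.96% of all genes, and none was called. The summed level of the blood genes was 1829 to 2549 TPM at dawn and 1052 to 1967 at dusk, overlapping. Their part in the results above was not tested. The sums of the endothelial (174 to 238 against 136 to 228 TPM), immune (26.7 to 31.6 against 24.1 to 34.5), fibroblast (43.3 to 122 against 48.2 to 79.3), adipocyte (44.5 to 119 against 40.4 to 114) and podocyte (96.5 to 115 against 84.8 to 125) markers overlapped between dawn and dusk. Of the adipocyte markers 5 were tested, with a median difference of 1.53 in KO and -3.42 in WT, and none was past an unadjusted p of 0.05 in KO. The KO median was 2.64 without KO ZT12 A, where 1 gene was past that level, and 2.5 without KO ZT20 B, and in WT 3 of the 4 tested were called higher at dusk. Adrenal cortex markers summed to at most 1.46 TPM, with Cyp11b2 at 0 in all 8 libraries.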

How the data were processed

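Per the submitters' processing notes, kallisto 0.42.4 and the builds mm10 and GRCm38 were used; the index, annotation and options are not given in the sources used here. TPM per transcript were deposited by the authors for all 24 kidney RNA libraries, and TPM keep no read depth. Here TPM were summed per gene through the GENCODE M21 transcript names (86119 of 88198 transcripts matched; 1.48% to 2.15% of TPM did not) and tested as log2(TPM + 0.1) with limma 3.58.1 in R 4.3.3 (eBayes with trend and robust), for genes with a mean of 1 TPM or more. P-values were two-sided and adjusted over all genes tested by the Benjamini-Hochberg method. Dawn was set against dusk in KO, in WT, and as the KO difference minus the WT difference. On simulated data with 200 of 12916 genes changed, the KO test recovered 23%, 81.5% and 93.5% of changes of 0.5, 1 and 2 log2 units.

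The members and the 21 gene lists and 14 marker lists were chosen with earlier results of these data known. Named were Arntl, the clock genes, the 10 genes with the smallest p per direction, the 5 largest folds per direction among calls, up to 4 genes per list and the 5 genes with the smallest p between genotypes. Gsr, Sdf2l1, Hspa5, Herpud1, Fasn, Acot2, Hspa1a, Hspa1b, the genes called only without 1 library and those with a promoter match fall outside this rule and were named with their values in view. Alternatives covered pseudocount, filter, scaling, model, times, transcripts, and each library left out in turn. Promoters came from RefSeq on GRCm38. The 20 chromosome conformation (4C) samples were not analysed here. Some results are not reported here.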

Additional observations from a re-analysis of the deposited data

Results flagged for a closer look

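Among 158 sets of 4 libraries, 10 (6.33%) held 1 library far from the other 3 by Dixon's criterion, where chance gives about 1 in 20. At dawn, KO ZT20 B stood apart for Cpt1a at 73.6 TPM (others 46.5 to 47.9), for Slc35b1 at 31.3 (35.3 to 35.8) and for Tuba1b at 78.1 (95.9 to 99.1). KO ZT0 A stood apart for Cry2 at 10.95 TPM (10.03 to 10.18) and for the Y-linked sum at 58.9 (54.8 to 55.4). At dusk, KO ZT12 A stood apart for Xbp1 at 65.5 TPM (46.9 to 47.9) and for the Y-linked sum at 3.31 (57.1 to 62.7). KO ZT12 B stood apart for Gsr at 55.3 TPM (61.7 to 61.9), for Pdia3 at 156 (163 to 164) and for Pik3ip1 at 7.18 (5.48 to 5.63).

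The dawn-dusk difference departed from that of WT, by the limma test of the difference between genotypes, in 11 named genes. On the log2 scale the KO difference minus the WT difference was -4.33 for Arntl, -4.41 for Nfil3, -3.47 for Npas2, -1.93 for Slc16a1, -2.42 for Ypel2 and -2.98 for Pdk4. It was 5.02 for Dbp, 3.24 for Nr1d1, 1.73 for Nr1d2, 1.97 for Per3 and 1.51 for Tef. Pdk4 was the only one of the 11 that was also called in KO.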

How the results depend on the processing

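The 24 KO calls became 11 with eBayes without trend and robust, 5 with all 12 KO libraries in the fit, 1 with the library labelled KO ZT4 A left out of those, 8 for ZT20 against ZT8 alone and 3 for ZT0 against ZT12 alone; the cause was not tested. The count lay between 17 and 25 under the other pseudocounts, filters, scalings and models and for transcripts. The genes called changed more than this count. Of the 24, 11 passed with a mean for each time point and 12 with no filter on low values. With eBayes without trend and robust 10 passed, and with all 12 KO libraries 3. ZT20 against ZT8 alone kept 1, and so did ZT0 against ZT12 alone. Leaving out 1 library at a time gave 8 to 40 calls in KO, 25 to 60 for the difference between genotypes (41 as reported) and 1200 to 1791 in WT (2202 as reported). The difference between genotypes gave 66 calls with median-of-ratios scaling (32 with the higher and 34 with the lower KO difference) and 74 with a mean for each time point; in WT median-of-ratios scaling gave 1067 calls higher at dawn and 1173 at dusk. The letters A and B did not pair the libraries (correlations of the A minus B deviations from -0.09 to 0.11 over 6 pairs). With the letter as a replicate block 19 genes were called in KO (17 of the 24 among them), 35 for the difference between genotypes and 2042 in WT. Over single genes, 0 of 1544 values reversed as a call, 186 lost and 17 gained the threshold, and 4 uncalled values changed sign. Of the 24 calls, 9 passed all 10 other settings of pseudocount, filter, scaling and model. Those 10 do not include the fits with 1 library left out, where 6 passed each time. Nor do they include the fits with all 12 KO libraries or the contrasts of single time points. With 4 libraries per group, no depth in TPM and 23% recovery at 0.5 log2 units, small differences could be missed.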

Other observations

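Within dawn, ZT0 against ZT20 (2 libraries each, chosen after seeing the data) gave 5 calls by limma (Rpsa-ps2, Trbj2-7, Gm16056, Gm15068 and Gm15069), and within dusk ZT12 against ZT8 gave 1 (Gm16056), and none of these was among the 24 genes called between dawn and dusk. At an unadjusted p under 0.05 these contrasts held 383 and 1326 genes.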
